A study of Mus musculus with 187 samples.

Results

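Single mouse embryos that had received a control injection were set side by side at the 4-cell and the late 2-cell stage, to see which transcripts stood at another place among the genes of an embryo after the second cleavage. The embryos are the 28 GFP embryos of the 4-cell table and the 11 GFP embryos of the 2-cell table, 39 of the 187 embryos of the series. They were chosen by their labels of stage and injected RNA. The members compared are the 8569 gene symbols that occur exactly once in both tables, out of 8805 genes in the 2-cell table and 23534 features in the 4-cell table.

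All embryos came from in vitro fertilisation (IVF) with gametes of the FVB strain. Zygotes were injected 2 h after IVF, and the GFP group received mRNA of histone H3.3 fused to GFP, which served as the injection control for the small RNAs tested elsewhere in the series. Embryos were kept by their GFP signal, so both groups carry the injected mRNA and no uninjected embryo enters the comparison. The 2-cell embryos were collected 32 h after IVF, and no collection time is given for the 4-cell embryos in the labels used here. RNA was measured by single-cell RNA-seq of whole embryos, each embryo being a library of its own. A library pools all cells of its embryo, so fewer cells with a transcript and less of it per cell cannot be told apart.

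A mouse egg carries a store of maternal RNA and is transcriptionally quiet. In the 2-cell embryo the embryo's own genome is switched on in a major wave, which includes a short burst of genes driven by or lying near MERVL, an endogenous retrovirus (the Zscan4, Tcstv and Usp17l families, Zfp352 and others). In parallel the maternal store is degraded, partly through BTG4, an adaptor that brings the CCR4-NOT deadenylase to maternal messages. Ribosome, mitochondrial and other housekeeping genes are then transcribed from the embryonic genome, and the first lineage regulators accumulate before compaction at the 8-cell stage.

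The 2 stages were measured in different tables, units and batches, and these cannot be told apart from stage. The 2-cell values are expected counts, which grow with transcript length, and the 4-cell values are FPKM (fragments per kilobase of transcript, scaled to the library), which do not. No test was therefore run between the stages. Each gene was placed among the shared genes of its own embryo as a percentile, from 0 for the lowest value to 100 for the highest. A gene was called when its median percentile over the 4-cell embryos lay at least 25 points above or below that over the 2-cell embryos and no 4-cell embryo overlapped a 2-cell embryo. It had to hold both for the values as deposited and with the counts divided by transcript length, which was possible for 8552 genes. A gene with a 2-cell median within 25 points of 100 could not be called higher. One within 25 points of 0 could not be called lower. Percentiles below are per transcript length unless stated otherwise, and values given as 3 numbers are the lowest, the median and the highest embryo. A percentile is a relative place: fewer transcripts of a gene and more transcripts of other genes cannot be told apart, since total RNA per embryo was not measured.

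The 2-cell embryos had 0.644 to 2.34 M counts (expected counts summed over the table, median 2.08). The 4-cell FPKM keep no depth. Of the shared genes, 251 to 686 per embryo (median 423.5) were listed at 0 in 4-cell embryos and 43 to 561 (median 131) in 2-cell embryos. Within a stage, the median Spearman correlation of an embryo with the others was 0.822 to 0.950 at the 4-cell stage and 0.546 to 0.850 at the 2-cell stage, over the shared genes. Across the stages its median was 0.576. Markers of the cumulus cells that surround the egg were checked first: 18 of 19 were in the 4-cell table, all 18 had a median under 1 FPKM, their summed level was 0.358 to 6.52 FPKM, and none was among the genes of the 2-cell table. Of 14 sperm markers, 13 were in the 4-cell table, 10 of them at a median of 0, and the summed level was 13.3 to 56.4 FPKM. The protamine genes Prm1 and Prm2 were among the 10, and Odf2, Ldhc and Tssk6, with medians of 12.8, 8.25 and 1.32 FPKM, were the 3 others. These same 3 were the sperm markers in the 2-cell table, with a summed level of 140.0 to 965 CPM. Of 20 blastocyst markers, 19 were in the 4-cell table and 11 had a median under 1 FPKM, among them Cdx2, Sox17 and Krt7 at a median of 0. The others, with medians above 1 FPKM, were Dppa5a (2808), Cldn4 (90.4), Gata4 (85.9), Nanog (25.7), Fgf4 (24.6), Esrrb (11.3), Gata6 (9.44) and Klf4 (9.13). The summed level of the blastocyst markers was 1514 to 7686 FPKM, most of it from Dppa5a. The 6 in the 2-cell table had a summed level of 422 to 929 CPM.

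Several libraries stand apart. The 2-cell embryo replicate 8 had the lowest correlation with its own stage (0.546) and with 4-cell embryos (0.190). In it 299 genes lay 25 points or more below all the other 2-cell embryos and 66 lay as far above all of them. Its median percentile of nucleolar ribosome biogenesis genes was 33.3, against 56.9 to 84.9 in the other 2-cell embryos, while that of 2-cell-stage genes (95.5) lay inside their range of 82.4 to 98.3. The 2-cell replicate 10 was the shallowest, with 0.644 M counts and 561 shared genes at 0. Replicates 8 and 10 are both of batch H and share a front code of their titles that no other GFP embryo of that batch carries. The labels do not say what this code means. The batches of the embryos are the end codes of their titles, given letters here: G and H at the 2-cell stage, with 6 and 5 embryos, and J, K, L, M, N, P, Q and R at the 4-cell stage, with 3, 4, 2, 4, 2, 4, 5 and 4 embryos. The codes of J and K differ by a suffix only, so these batches may not be separate days. The 6 4-cell embryos of batches M and N had low or no levels of several paternally expressed imprinted genes, as described at the end. Counts of calls are given with and without these embryos.

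The promoters of the genes that shifted most are shown because the shares of short motifs in promoters of the called genes are given further on. They were read from RefSeq (GRCm38.p6), from 250 bases before to 50 bases after the annotated start, and are written in the direction of the gene. Capitals mark the motif named with each sequence, on either strand. Slirp and Dnajc15 had the largest differences among the genes that ranked higher in 4-cell embryos. The capitals in Slirp (chr12:87443646-87443945, plus strand) mark CCGGAAG, the core recognised by ETS factors, on the minus strand at -146 and -11 and on the plus strand at -48 from the start. Dnajc15 (chr14:77874868-77875167, minus strand) held none of the motifs searched.
Slirp: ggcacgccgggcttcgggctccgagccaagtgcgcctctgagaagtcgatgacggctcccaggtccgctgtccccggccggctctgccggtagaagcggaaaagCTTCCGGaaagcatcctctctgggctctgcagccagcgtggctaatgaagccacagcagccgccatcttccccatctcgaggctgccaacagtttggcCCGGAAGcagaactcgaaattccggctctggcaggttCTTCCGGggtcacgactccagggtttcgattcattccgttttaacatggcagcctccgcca
Dnajc15: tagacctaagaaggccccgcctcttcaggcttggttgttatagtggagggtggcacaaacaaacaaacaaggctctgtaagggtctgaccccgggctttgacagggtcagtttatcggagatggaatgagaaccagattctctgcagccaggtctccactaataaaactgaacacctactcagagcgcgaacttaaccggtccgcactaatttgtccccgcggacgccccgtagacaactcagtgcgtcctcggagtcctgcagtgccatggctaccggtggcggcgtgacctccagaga

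Prnp and Rfpl4b are shown for the genes that ranked lower. Gm20594 (-97.2) and Gm21312 (-94.9) had larger differences and their promoters are not shown. Capitals mark CCAAT on the minus strand at -222 and -53 in Prnp (chr2:131909678-131909977, plus strand). They mark TATATAAGG at -30 in Rfpl4b (chr10:38821730-38822029, minus strand), a stretch picked after the sequence was seen.
Prnp: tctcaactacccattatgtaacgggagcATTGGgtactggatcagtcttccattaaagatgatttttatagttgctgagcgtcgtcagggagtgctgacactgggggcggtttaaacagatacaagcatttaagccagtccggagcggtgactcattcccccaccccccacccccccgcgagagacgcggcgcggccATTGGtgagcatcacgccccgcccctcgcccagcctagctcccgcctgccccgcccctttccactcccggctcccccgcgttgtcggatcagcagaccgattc
Rfpl4b: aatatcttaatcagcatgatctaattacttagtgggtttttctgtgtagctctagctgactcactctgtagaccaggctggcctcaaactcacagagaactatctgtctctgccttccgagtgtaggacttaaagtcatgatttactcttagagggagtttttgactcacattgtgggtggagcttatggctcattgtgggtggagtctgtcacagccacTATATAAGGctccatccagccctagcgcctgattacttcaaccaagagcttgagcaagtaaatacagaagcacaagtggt

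Zfp352 and the Zscan4 genes show the 2-cell-stage group. Capitals mark GGATTA, a core bound by homeodomain factors of the bicoid and OTX class, in Zfp352 (chr4:90218570-90218869, plus strand). It occurs 9 times there, always on the minus strand, at steps of 20 or 21 bases from -227 to -61. The search took 1 promoter per gene symbol and left out 1 chromosome. Of the 27025 promoters searched, 25090 held no copy, 1831 held 1, 96 held 2, 6 held 3, 1 held 4, and Zfp352 was the single promoter with 9. In Zscan4c (chr7:11005495-11005794, plus strand), Zscan4d (chr7:11166099-11166398, minus strand) and Zscan4f (chr7:11397665-11397964, plus strand) capitals mark the TATA box TATAAA, at -54, -65 and -31 from the annotated starts.
Zfp352: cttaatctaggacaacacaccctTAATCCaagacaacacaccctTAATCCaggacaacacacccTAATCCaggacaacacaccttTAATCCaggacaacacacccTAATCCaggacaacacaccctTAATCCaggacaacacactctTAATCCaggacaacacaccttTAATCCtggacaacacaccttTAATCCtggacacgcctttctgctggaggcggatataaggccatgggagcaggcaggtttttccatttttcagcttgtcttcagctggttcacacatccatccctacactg
Zscan4c: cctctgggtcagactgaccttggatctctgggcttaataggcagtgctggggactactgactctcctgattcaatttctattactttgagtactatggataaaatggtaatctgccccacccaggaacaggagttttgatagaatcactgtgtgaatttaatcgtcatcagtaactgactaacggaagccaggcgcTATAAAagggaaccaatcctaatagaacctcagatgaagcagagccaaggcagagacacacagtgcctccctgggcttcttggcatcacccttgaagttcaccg
Zscan4d: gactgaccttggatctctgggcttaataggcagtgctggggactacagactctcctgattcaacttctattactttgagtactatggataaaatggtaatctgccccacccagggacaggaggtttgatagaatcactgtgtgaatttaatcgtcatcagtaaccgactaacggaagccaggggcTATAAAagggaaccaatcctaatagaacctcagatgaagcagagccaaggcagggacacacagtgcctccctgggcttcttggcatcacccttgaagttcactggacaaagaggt
Zscan4f: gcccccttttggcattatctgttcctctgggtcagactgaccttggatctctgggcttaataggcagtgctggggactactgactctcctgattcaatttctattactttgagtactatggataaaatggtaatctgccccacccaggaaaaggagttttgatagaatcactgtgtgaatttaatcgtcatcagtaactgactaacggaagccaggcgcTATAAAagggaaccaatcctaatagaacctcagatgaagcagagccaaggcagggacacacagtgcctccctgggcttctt

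When lined up on their shared sequence, the Zscan4 promoters were 97.2% (Zscan4c and Zscan4d), 99.3% (Zscan4c and Zscan4f) and 97.4% (Zscan4d and Zscan4f) identical. Reads of such near copies may have been split between them by the authors' counting, so the level of a single Zscan4 gene is uncertain.

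Of the 8552 genes with a length, 288 were called higher (3.37%) and 417 were called lower (4.88%) in 4-cell embryos. Genes missing from the 2-cell table, whose lowest mean count was 4.35, could not be called. Of the protein-coding features missing there, 689 had a median of 5 FPKM or more in 4-cell embryos. The counts of higher and lower calls are therefore not a balance of gains and losses. Without the length condition, 761 of 8569 were higher (8.88%) and 791 were lower (9.23%). When the calls also had to hold with the counts divided by coding length, 206 of 8338 were higher (2.47%) and 338 were lower (4.05%). Without 2-cell replicate 8 the counts were 307 (3.59%) and 432 (5.05%), and without the batches M and N they were 353 and 465. The median absolute difference over all genes was 14.9 points, and 1143 genes showed no overlap between the stages per transcript length.

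**Figure D1:**
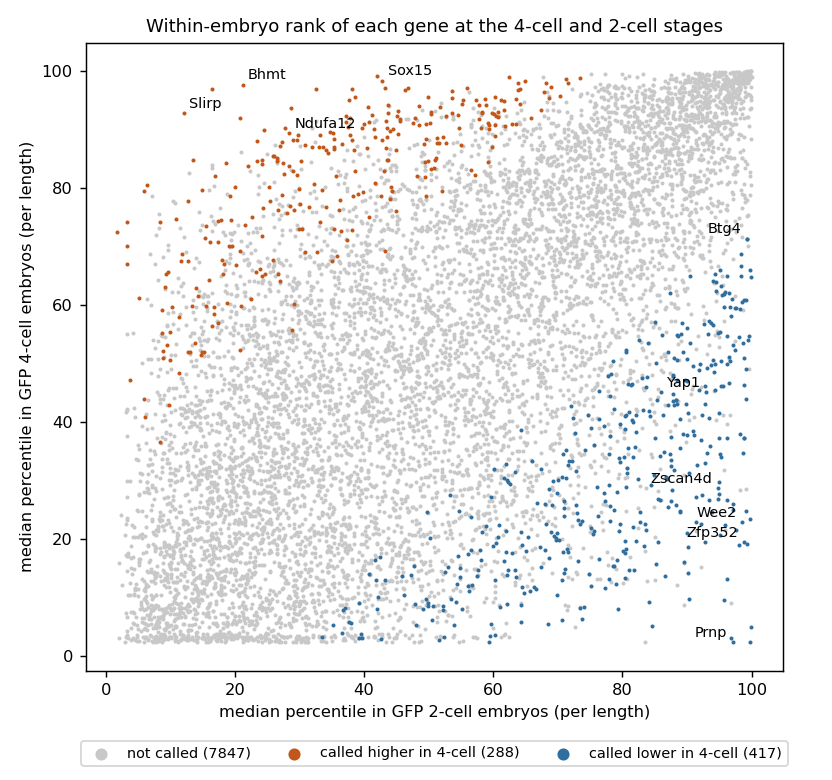
Median percentile of each shared gene per transcript length over the 28 GFP 4-cell embryos (vertical axis) against its median over the 11 GFP 2-cell embryos (horizontal axis), with the genes called higher and lower coloured and some named. The 288 genes called higher lie in the upper left and the 417 called lower in the lower right, with Slirp at 92.8 and 12.05 and Prnp at 2.48 and 97.1.

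Genes of the 2-cell burst ranked lower in 4-cell embryos. Of the 60 transcripts listed as MERVL-linked or otherwise transient at the 2-cell stage, 43 were shared. Their median difference was -54.6 points, against 0.365 over all genes. Of them, 16 were called lower and 0 higher, with 4.88% of all genes called lower. The median percentile of the list was 19.6, 27.4 and 52.9 in 4-cell embryos and 82.4, 93.3 and 98.3 in 2-cell embryos, so the stages did not overlap. In 4-cell embryos it was 24.6 to 31.2 in 7 of the 8 batches and 50.3 in batch N (2 embryos), and in 2-cell embryos it was 93.1 and 94.3 in the 2 batches.

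Zfp352, a zinc finger gene whose transcript marks this stage, had 0, 1.88 and 9.88 FPKM in 4-cell embryos and 469.9, 974 and 1851 CPM (counts scaled to the total of the table) in 2-cell embryos. It was listed at 0 in 4 of the 28 4-cell embryos and was among the most abundant genes in every 2-cell embryo. Its percentile was 1.46, 19.6 and 50.2 in 4-cell embryos and 95.7, 98.8 and 99.5 in 2-cell embryos. The highest 4-cell percentile of Zfp352 remained far below its lowest 2-cell one, and its 2 embryos of batch N, at 9.11 and 9.88 FPKM, were at the upper end of the 4-cell range.

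Zscan4d, a SCAN-domain zinc finger gene of this burst that is known for its role in telomere maintenance in embryonic stem cells, had 0.955, 3.81 and 14.4 FPKM in 4-cell embryos and 96.5, 404 and 1418 CPM in 2-cell embryos. Its percentile of 14.5, 28.7 and 53.01 in 4-cell embryos stood against 75.5, 94.8 and 99.1 in 2-cell embryos. All 4-cell embryos lay below all 2-cell embryos, and the 2-cell embryos differed widely among themselves. Tcstv3, of the 2-cell-stage variable gene group, stood at a percentile of 8.16, 37.4 and 68.7 in 4-cell embryos and 95.97, 98.9 and 99.6 in 2-cell embryos. Its 4-cell levels of 0.329, 6.45 and 28.5 FPKM were the most spread of the 3 markers of this burst.

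Further members called lower were Gm12794 (median difference -86.1), the deubiquitinase Usp17lb (-80.1) and Arg2 (-74.5), which encodes the mitochondrial arginase and was picked for mention after its value was seen. Usp17lb reached 0, 1.69 and 204 FPKM in 4-cell embryos, so that at least 1 embryo stood high (percentile 1.63 to 96.2, against 98.4 to 99.5 in 2-cell embryos), and its call did not hold per coding length. Usp17lc, the other Usp17l gene the list turned on, had a difference of -80.8 points and was not called because its stages overlapped (1.63 to 65.3 in 4-cell embryos, 63.9 to 96.2 in 2-cell embryos). Aqr, an intron-binding spliceosome helicase, had the largest difference in the other direction (26.6 points, not called). The copies of these multi-copy families can share reads.

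**Figure D2:**
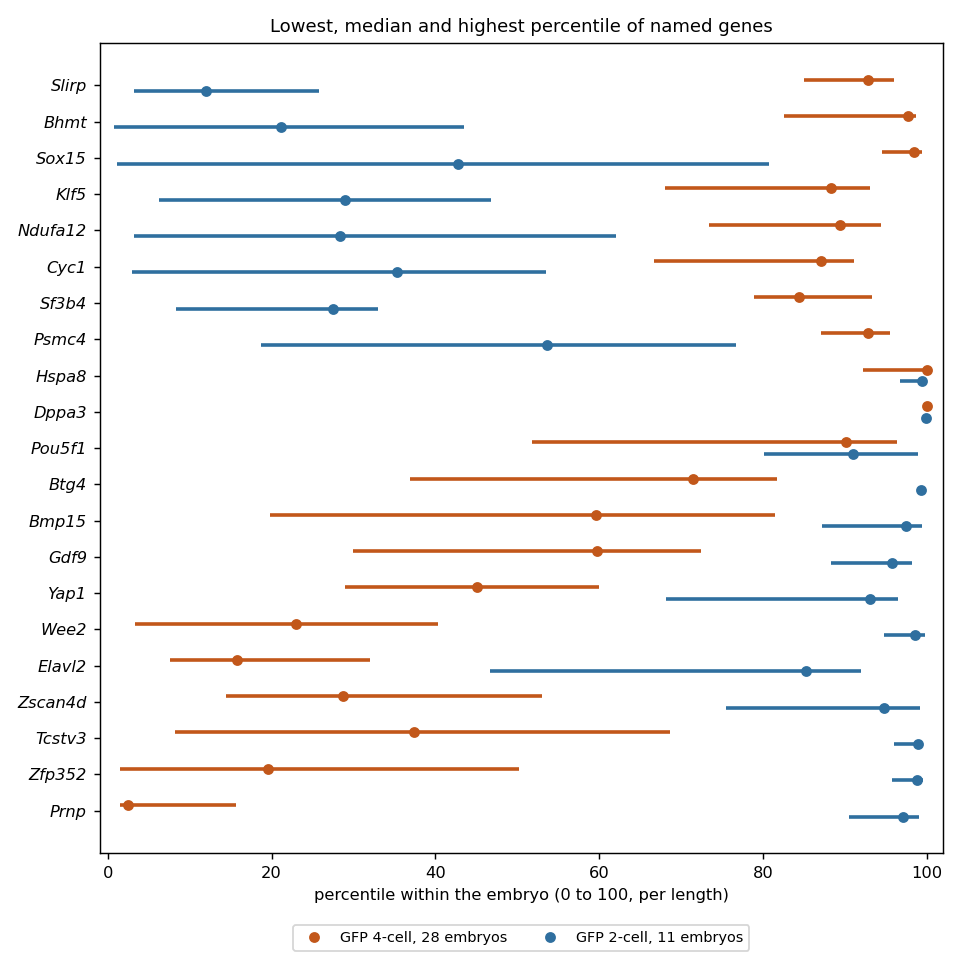
Percentile per transcript length of genes the text turns on, with lines from the lowest to the highest embryo and a point at the median, for the 28 GFP 4-cell embryos (upper line of each gene) and the 11 GFP 2-cell embryos (lower line). The called genes, such as Slirp, Bhmt, Zfp352 and Prnp, show no overlap between the stages, while the uncalled Hspa8, Dppa3 and Pou5f1 overlap.

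Outside that list, the largest differences among genes called lower included Prnp, Rfpl4b and several unnamed gene models. Prnp encodes the prion protein, a membrane-anchored glycoprotein. It was listed at 0 in 26 of the 28 4-cell embryos and reached 1.65 FPKM in the highest of them, and had 251, 574 and 1151 CPM in 2-cell embryos. Its percentile was 1.46, 2.48 and 15.7 in 4-cell embryos and 90.5, 97.1 and 99.1 in 2-cell embryos, so the stages stood at opposite ends of the ranking. Prnp shares its annotated start with the read-through gene Prn, and the authors' counting may have split their reads. Rfpl4b, a RING-finger gene of the Rfpl family, was listed at 0 in 18 4-cell embryos, with a percentile of 1.46, 3.12 and 33.8, against 91.2, 96.9 and 97.95 in 2-cell embryos. The other genes of the 12 largest lower calls were Gm20594 (-97.2), Gm21312 (-94.9, at a locus shared with Gm4340), AA545190 (-82.9), the trypsin-like gene Try10 (-80.6), Gm4971 (-79.4), B020031M17Rik (-78.997) and Gm2022 (-76.2), besides Gm12794, Usp17lb and Zfp352. Over all shared genes, 271 had a median of 0 FPKM in 4-cell embryos and 1 was listed at 0 in all of them.

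Transcripts that the egg lays down ranked lower as a second large group. Of 53 shared genes of 60 listed as maternal regulators (oocyte transcription factors, RNA-binding proteins and cell cycle factors), 17 were called lower and 0 higher, and 14 of the calls also held per coding length. The lower calls were 32.1% of the shared members, against 4.88% of all genes. The median difference was -35.9 points. The median percentile was 29.6, 39.8 and 59.2 in 4-cell embryos and 74.4, 85.6 and 94.7 in 2-cell embryos. Every 4-cell embryo thus lay below every 2-cell embryo for this list.

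Wee2 (chr6:40442863-40466815 in mm10, by the authors' locus column), the oocyte kinase that holds CDK1 inactive during meiotic arrest, had 0, 2.07 and 8.19 FPKM in 4-cell embryos and 491, 1081 and 3507 CPM in 2-cell embryos. Its percentile was 3.36, 22.9 and 40.3 in 4-cell embryos and 94.7, 98.6 and 99.7 in 2-cell embryos. Elavl2, an RNA-binding protein of the Hu family, was at 7.54, 15.7 and 31.98 in 4-cell embryos and 46.6, 85.2 and 91.9 in 2-cell embryos. Neither gene overlapped between the stages.

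Btg4, the deadenylase adaptor, was still well detected at the later stage: it had 5.61, 31.3 and 63.04 FPKM in 4-cell embryos and 577.2, 879 and 2271 CPM in 2-cell embryos. Its percentile was 36.9, 71.4 and 81.7 in 4-cell embryos and 98.7, 99.3 and 99.8 in 2-cell embryos, a difference of -27.9 that was just past the step of 25 points. Kpna7, an oocyte importin, had a difference of -67.5 (1.47 to 38.7 in 4-cell embryos, 40.3 to 94.2 in 2-cell embryos) but was not called, since its stages overlapped in the values as deposited. Picked after their values were seen, the Tcl1 family had 6 called members: Tcl1b4 (-60.3), Tcl1b5 (-55.1), Tcl1b2 (-47.7), Tcl1b3 (-45.2), Tcl1 (-35.1) and Tcl1b1 (-33.8), and of the Obox homeobox genes Obox3 (-61.5) and Obox5 (-39.4) were called. Uncalled members of the Tcl1 and Obox families were not counted here, so no share of a family can be read from these names. Cpeb2, a cytoplasmic polyadenylation element binding protein, had the largest difference in the other direction (14.5, or -9.37 as deposited, not called).

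The genes of the subcortical maternal complex and related oocyte NLRP proteins, which the embryo needs for its first divisions, also ranked lower. Of 20 shared members, 6 were called lower (30%, against 4.88% of all genes) and 0 higher, and 2 of the 6 held per coding length. The list's median percentile was 28.3, 39.995 and 53.3 in 4-cell embryos and 75.3, 80.99 and 92.01 in 2-cell embryos. Nlrp9c was at 14.05, 24.7 and 40.9 in 4-cell embryos and 73.5, 82.8 and 94.02 in 2-cell embryos, the called member with the largest difference (-58.04). Picked after their values were seen, Nlrp5, which encodes the core component MATER, had a difference of -49.4, or -34.9 per coding length, and Tle6, its partner, one of -42.9, or -31.8 per coding length; neither call held there. The uncalled members Nlrp9a (-59.7) and Nlrp4g (-57.02) had large differences, with stages that overlapped in the values as deposited, and Nlrp4c (13.2) stood at the other end of the list.

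Proteins of the egg coat and factors secreted by the oocyte were represented by 11 shared genes of 18. The growth factors Gdf9 and Bmp15, which act on the follicle cells, were called lower, and 0 were higher. These 2 calls were 18.2% of the 11, against 4.88% of all genes. Gdf9 was at 29.9, 59.7 and 72.4 in 4-cell embryos and 88.3, 95.7 and 98.2 in 2-cell embryos. Bmp15 was at 19.8, 59.6 and 81.4 in 4-cell embryos and 87.1, 97.4 and 99.4 in 2-cell embryos. Zp3, a structural protein of the zona pellucida, had a difference of -18.7 (1.69 as deposited) and was not called. The protease genes Plat (-47.7) and Astl (-45.4) and the zona gene Zp2 (-42.5), whose stages overlapped, were not called either. The list as a whole had a median percentile of 29.9, 54.6 and 74.9 in 4-cell embryos and 82.5, 91.9 and 97.6 in 2-cell embryos.

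**Figure D3:**
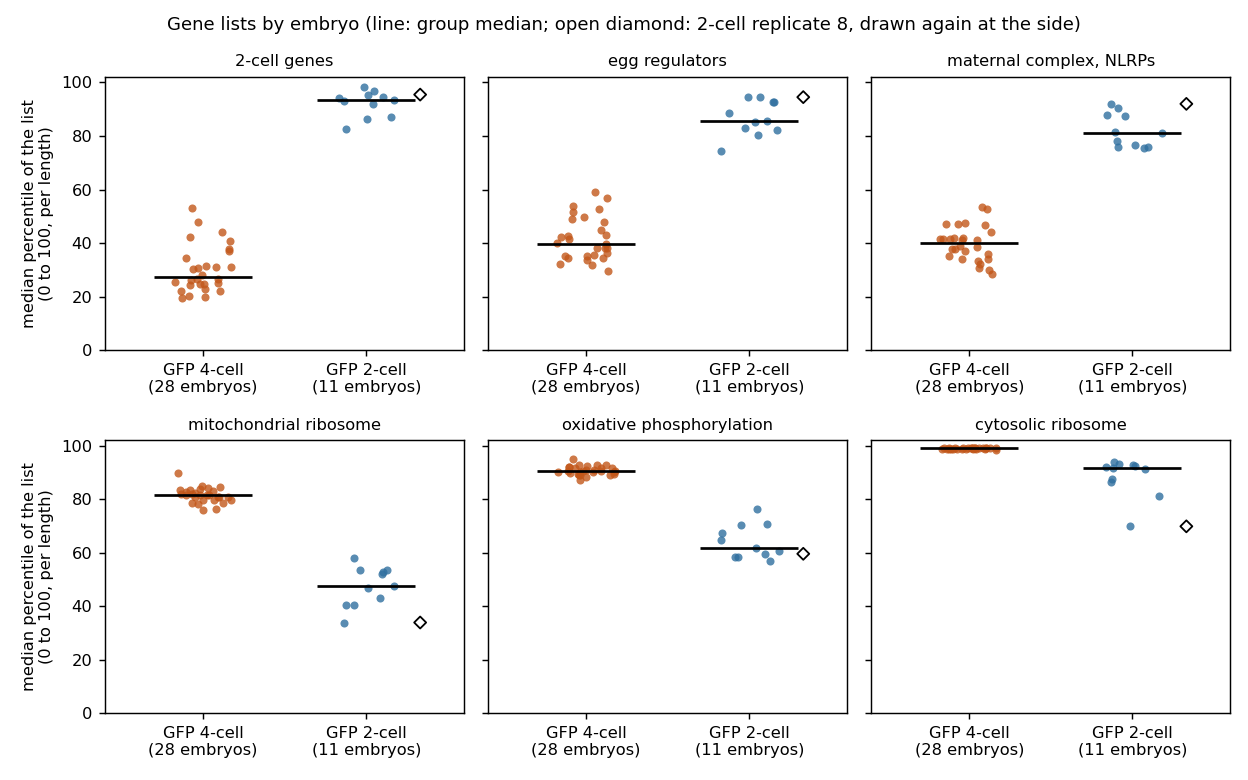
Median percentile per transcript length (vertical axis) of the genes of 6 lists, with a point for each GFP 4-cell embryo and each GFP 2-cell embryo, lines at the group medians, and 2-cell replicate 8 drawn again as a diamond at the side. In the upper row all 4-cell embryos lie below all 2-cell embryos, and in the lower row all lie above them.

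At the other end, the 3 largest differences among genes called higher in 4-cell embryos were those of Slirp, Dnajc15 and Bhmt. Slirp, which encodes an RNA-binding protein that stabilises mitochondrial messages with LRPPRC, had 73.95, 164 and 450.1 FPKM in 4-cell embryos and 0, 7.77 and 18.6 CPM in 2-cell embryos. Its percentile was 85.04, 92.8 and 96.02 in 4-cell embryos and 3.26, 12.05 and 25.8 in 2-cell embryos. Its transcript length was far above its coding length, and per coding length the difference was 51.8 instead of 80.7 points, still called. Dnajc15, a J-domain protein of the mitochondrial inner membrane, was at 85.5, 96.9 and 98.2 in 4-cell embryos and 3.17, 16.5 and 32.5 in 2-cell embryos, with 31.4 points per coding length.

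Bhmt (chr13:93616891-93637758 in mm10, by the authors' locus column), which makes methionine from homocysteine with betaine as the methyl donor, had 59.2, 460.2 and 892 FPKM in 4-cell embryos and 0, 12.4 and 35.7 CPM in 2-cell embryos. Its percentile of 82.6, 97.7 and 98.7 in 4-cell embryos stood against 0.760, 21.2 and 43.5 in 2-cell embryos, so all 4-cell embryos lay above all 2-cell embryos. Mtx2, a metaxin of the mitochondrial outer membrane, had a difference of 65.8, and Bag3, a co-chaperone of HSP70, one of 65.7. The rest of the 12 largest higher calls were Ppt2, a lysosomal thioesterase (71.3), Syngr1, a vesicle membrane protein (71.1), Atn1, a nuclear co-repressor (70.96), Fig4, a phosphoinositide phosphatase (70.7), and the mitochondrial ribosomal genes Mrpl47, Mrps16 and Mrps35.

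Mitochondrial ribosomal proteins, which translate the messages of the mitochondrial genome, had a median difference of 26.6 points over 65 genes (46.02 as deposited and 25.6 per coding length). Of them, 17 were called higher and 0 lower, with 3.37% of all genes called higher, and 12 of the 17 held per coding length. The median percentile of the list was 76.04, 81.7 and 89.9 in 4-cell embryos and 33.97, 47.5 and 58.2 in 2-cell embryos, with the lowest 2-cell value in replicate 8 and 40.3 as the lowest without it. Mrps35 was at 51.3, 70.2 and 84.6 in 4-cell embryos and 0.760, 3.26 and 17.4 in 2-cell embryos. Mrpl47 (74.2) and Mrps16 (73.6) had larger differences whose calls did not hold per coding length (64.9 and 66.5, with stages that overlapped), and Mrpl41 had the largest difference in the other direction (-7.01, not called).

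Subunits of oxidative phosphorylation, the chain of respiratory complexes and the ATP synthase, had a median difference of 22.2 points over 68 genes (53.01 as deposited and 23.7 per coding length). Of them, 19 were called higher (27.9%, against 3.37% of all genes) and 0 lower, and 13 of these held per coding length. The list's median length was 779 bases, and 9.76% of all genes under 1000 bases were called higher. The list stood at 87.3, 90.5 and 95.1 in 4-cell embryos and 57.1, 61.8 and 76.3 in 2-cell embryos. Ndufa12 of complex I was at 73.4, 89.4 and 94.4 in 4-cell embryos and 3.17, 28.4 and 62.1 in 2-cell embryos. Cyc1, the cytochrome of complex III, was at 66.7, 87.03 and 91.1 in 4-cell embryos and 2.98, 35.3 and 53.5 in 2-cell embryos. Ndufb3 was called too (51.5) but had 46.9 per coding length, where the stages overlapped and the call did not hold. Picked after their values were seen, the ATP synthase genes Atp5g2 (51.3), Atp5k (50.3), Atp5d (47.9), Atp5e (46.2) and Atp5l (43.5) were among the genes called higher. Uncalled ATP synthase genes were not counted here. Cox6b2, the testis form of a cytochrome c oxidase subunit, had the largest difference in the other direction (-21.6, or 2.42 as deposited, not called).

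For cytosolic ribosomal proteins the size of the difference depended on the length scale. Their messages are short (median 802 bases, against 2931 over all genes). As deposited, 50 of 86 were called higher, with a median difference of 29.8 points. The shares as deposited were 8.88% of all genes and 45.8% of genes under 1000 bases. Per transcript length the median was 7.14 and 8 were called higher, and per coding length 5 of these held and 0 were lower. The 8 calls were 9.30% of the list, against 3.37% of all genes and 9.76% of genes under 1000 bases. A 2-cell percentile as high as the list's median (91.6) leaves no room for a call of higher. The list's percentile was 98.5, 99.0 and 99.2 in 4-cell embryos and 69.9, 91.6 and 93.9 in 2-cell embryos, so the stages did not overlap. The lowest 2-cell value was replicate 8, and without it the lowest was 81.2. Rps20 (57.2) and Rps15a (47.1) were called, but had 18.9 and -1.13 per coding length, where the calls did not hold. Rpl22 had a difference of 50.3 and was not called.

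**Figure D4:**
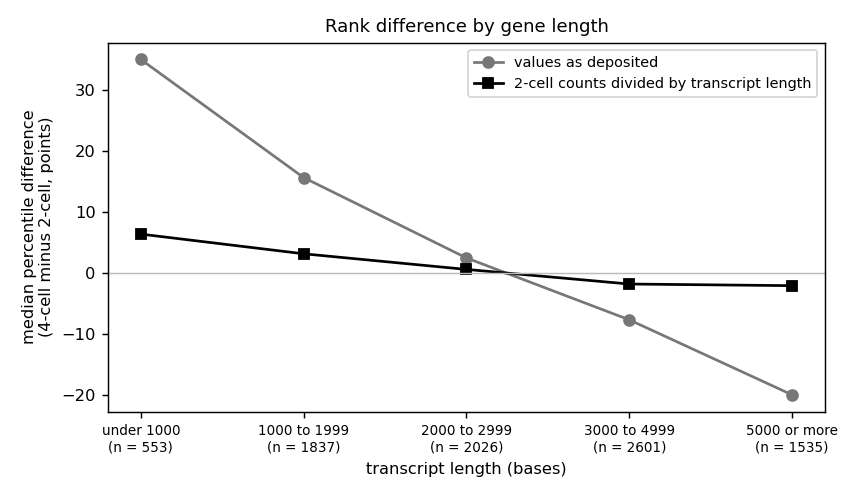
Difference in median percentile (4-cell minus 2-cell) in bins of transcript length, for the values as deposited and with the 2-cell counts divided by transcript length. The deposited values run from 35.1 points in genes under 1000 bases to -20.0 in genes of 5000 bases or more, and the values per length from 6.39 to -2.08.

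Over all genes, the difference as deposited had a Pearson correlation of -0.520 with the logarithm of transcript length (8552 genes). Per transcript length it was -0.0896, and per coding length it was 0.0732 against coding length (8338 genes). The median differences were 35.1 points as deposited and 6.39 per length for 553 genes under 1000 bases. They were -20.0 and -2.08 for 1535 genes of 5000 bases or more. The calls that held per transcript length still varied with length. Under 1000 bases, 9.76% of genes were called higher and 1.63% lower. At 5000 bases or more, these shares were 0.586% and 6.32%. Counts grow with the length of a transcript and FPKM are divided by it, so a shift of a short or a long gene as deposited cannot be told apart from the change of unit.

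Nucleolar ribosome biogenesis factors, which make and process ribosomal RNA, held few calls. Of 98 genes, 1 was called higher (Tsr2, 55.1, not held per coding length) and 0 lower, and the median difference was 6.16 points. This call was 1.02% of the list, against 3.37% of all genes. A gene at the list's 2-cell median of 76.02 could not be called higher. The list stood at 77.3, 83.5 and 85.6 in 4-cell embryos and 33.3, 76.02 and 84.9 in 2-cell embryos. The stages overlapped, and without replicate 8 the 2-cell range began at 56.9. Wdr12 (55.03) and Nvl (49.7) had the next largest differences and Utp23 the largest in the other direction (-23.7), all uncalled.

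The proteasome, the complex that degrades ubiquitinated proteins, had 4 of 34 subunits called higher (11.8%, against 3.37% of all genes) and 0 lower. Its median difference was 14.6 points. Its percentile was 91.7, 94.6 and 95.4 in 4-cell embryos and 58.8, 80.2 and 88.5 in 2-cell embryos. Psmc4, an ATPase of the regulatory particle, was at 87.01, 92.8 and 95.5 in 4-cell embryos and 18.7, 53.6 and 76.7 in 2-cell embryos. Psmc6, another of its ATPases (37.3), and Psmd13, a lid subunit (31.6), were called as well.

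Splicing factors and hnRNPs held 9 genes called higher (12.7%) and 2 called lower (2.82%) among 71, against 3.37% and 4.88% of all genes. The Sm core protein Snrpd3 was at 94.6, 96.98 and 98.1 in 4-cell embryos and 13.6, 38.2 and 63.5 in 2-cell embryos. Sf3b4 of the U2 particle had a difference of 56.9, and Snrpb2, also of that particle, one of 54.05. Hnrnpul2 was called lower (-44.1). The list stood at 78.2, 82.7 and 85.1 in 4-cell embryos and 62.1, 66.1 and 71.8 in 2-cell embryos, with no overlap between the stages.

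Other housekeeping lists held few calls, at or not far from the background shares of 3.37% higher and 4.88% lower. The 2-cell list medians were 81.5 for translation initiation, 79.5 for chaperones and 75.1 for RNA polymerase II and Mediator. A gene at such a 2-cell percentile could not be called higher. Among 49 translation initiation factors, 2 were called higher (4.08%) and 0 lower. That list stood at 86.4, 90.04 and 91.2 in 4-cell embryos and 60.4, 81.5 and 84.3 in 2-cell embryos, without overlap. The medians of the other lists named here overlapped between the stages. Eif1ax, which has 2-cell-specific relatives, had 46.7 points per transcript length and 6.38 per coding length, where the call did not hold. Of the 19 aminoacyl-tRNA synthetases Farsa was called higher (41.7), of 45 chaperones 2, led by the HSP90 co-chaperone Cdc37 (60.6), and of 42 RNA polymerase II and Mediator subunits Polr2i (45.4). The uncalled members Lars (59.4), Pfdn1 (40.8) and Med11 (34.3) give the size of differences that overlapped between the stages.

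Among regulators of pluripotency and of the first lineages, few were called. Of 65 listed, 38 were shared, with 3 called higher (7.89%), 1 lower (2.63%) and a median difference of 4.43 points, against 3.37% and 4.88% of all genes. Listed regulators that were not shared could not be called. Sox15 (chr11:69655037-69656727), an HMG-box factor of pluripotent cells, had 185, 719.7 and 1486 FPKM in 4-cell embryos and 0, 9.32 and 55.8 CPM in 2-cell embryos. Its percentile was 94.5, 98.4 and 99.4 in 4-cell embryos and 1.08, 42.8 and 80.7 in 2-cell embryos, with 2-cell embryos spread over most of the scale. Klf5 (chr14:99298691-99313409), a zinc finger factor of both early lineages, had 30.3, 95.4 and 197 FPKM in 4-cell embryos and 2.97, 18.4 and 48.3 CPM in 2-cell embryos, and a percentile of 68.1, 88.2 and 92.995 in 4-cell embryos and 6.29, 29.003 and 46.8 in 2-cell embryos.

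Yap1, the co-activator of the Hippo pathway, was called lower, at 28.9, 45.1 and 59.9 in 4-cell embryos and 68.1, 93.03 and 96.4 in 2-cell embryos. Tead4, its DNA-binding partner in trophectoderm, was called higher (48.7) and was picked for mention after its value was seen. Myc had a difference of 63.8 that overlapped between the stages. The factors Pou5f1 (-0.860, or 8.41 as deposited), Nanog (3.82), Tfap2c (16.5) and Nr5a2 (14.4) were not called. Pou5f1 had a 2-cell median percentile of 91.0, from which it could not be called higher. Sox2, Cdx2, Krt8 and Krt18 are not among the genes of the 2-cell table used here. In 4-cell embryos Sox2 and Cdx2 had a median of 0 FPKM, and the keratins Krt8 and Krt18 had medians of 1.58 and 1.87 FPKM.

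Adhesion, junction and cytoskeleton genes, which are needed at compaction, had 2 called higher (3.39%) and 6 called lower (10.2%) of 59. Of all genes, 3.37% were called higher and 4.88% lower. Myl12b, a regulatory light chain of non-muscle myosin, was at 85.1, 89.5 and 93.4 in 4-cell embryos and 21.2, 34.7 and 67.3 in 2-cell embryos. Pard3, a polarity scaffold, was at 16.9, 33.6 and 66.6 in 4-cell embryos and 70.8, 87.5 and 93.4 in 2-cell embryos, a call that did not hold per coding length. Cdh1, which encodes E-cadherin, had a difference of 33.2 points that was not called, since the range of 4-cell embryos (2.46 to 64.6) overlapped that of 2-cell embryos (8.03 to 50.6). The connexin Gja1 (44.3) and the actin regulator Arpc1b (42.6) were not called either.

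Metabolic and stress genes were called in shares near those of all genes (3.37% higher and 4.88% lower). In these short lists a single call was 3.45% (redox and metal), 6.25% (glycolysis), 5.26% (cholesterol) or 3.85% (stress) of the members. In the list of 29 redox and metal genes, glutathione reductase (Gsr, 48.4) was called higher and the glutathione transferase Gstm5 (-68.5) lower. The pyruvate kinase gene Pkm was the single call of 16 glycolysis genes, and it was lower, at 27.9, 54.8 and 74.1 in 4-cell embryos and 89.1, 96.2 and 98.3 in 2-cell embryos. In the cholesterol list of 19 genes, Insig1, which retains the sterol sensor in the endoplasmic reticulum, was called lower (-44.9) and the synthetic enzyme Ebp higher (32.9, or 27.7 per coding length, where it did not hold). Mthfd2, a mitochondrial folate enzyme and a target of the integrated stress response, was the 1 call of 26 stress genes (-42.9, lower).

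Cell cycle and chromatin genes were called about as often as all genes or less (3.37% higher and 4.88% lower). Among 73 cell cycle genes, 3 were called lower (4.11%) and 0 higher. Besides Wee2 they included Ccne2, a cyclin E (-45.4). Ccnd1 (-38.1) and Wee1, the somatic relative of Wee2 (49.1), were not called. Of 60 chromatin genes, 1 was higher (1.67%) and 3 were lower (5%): the arginine methyltransferase Prmt1 was higher (41.03), and the remodeller ATPase Smarca2 (-62.4) and the Polycomb gene Bmi1 (-37.97) were lower. The DNA repair scaffold Xrcc1 (60.3) was the 1 call of 20 genes tied to DNA methylation and its removal, whereas Tet3, the dioxygenase of the zygote, had -43.7 points and was not called. Of 23 small RNA pathway genes and of 23 genes of H3.3 and other histone variants, 0 were called.

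Solute carriers had 3 called higher and 4 called lower of 125, led by the amino acid transporter Slc7a6 (58.7) and the urea transporter Slc14a1 (-57.7). Zinc finger genes named Zfp had 3 higher and 4 lower of 189. Apart from Zfp352 they included Zfp957 (-45.5, not held per coding length). Both lists are near or below the background shares of 3.37% higher and 4.88% lower.

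Several abundant transcripts stood near the top at both stages. The metallothionein genes Mt1 and Mt2 were at 99.97 and 99.9 in 4-cell embryos and 99.8 and 99.4 in 2-cell embryos (medians). The maternal factor Dppa3 was at 99.9, 99.96 and 99.99 in 4-cell embryos and 99.6, 99.9 and 99.98 in 2-cell embryos. H3f3a and H3f3b, which encode H3.3, had medians of 98.97 and 99.01 in 4-cell embryos and 97.8 and 99.6 in 2-cell embryos, while the mRNA injected in both groups also encodes H3.3. Npm1, a nucleolar chaperone, was at 99.9 in 4-cell embryos and 99.6 in 2-cell embryos, and Hspa8, the constitutive HSP70, at 99.95 in 4-cell embryos and 99.4 in 2-cell embryos. Ncl (11.3), the oocyte linker histone H1foo (-25.3) and the heat shock gene Hspa1a (-32.4), which is known for its transcription at the start of genome activation, were not called.

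The motifs of the promoters shown first were counted over the same 27025 searched promoters, on both strands. CCGGAAG was in 37.3% of 217 promoters of genes called higher, 8.18% of those called lower (26 promoters) and 20.7% of 6577 shared genes, and in 9.12% of all 27025. It was in 38.5% of 65 promoters of cytosolic ribosomal protein genes, 35.1% of 57 of mitochondrial ribosomal protein genes and 27.3% of 55 of oxidative phosphorylation genes. TATAAA was in 5.99% of genes called higher, 11.3% called lower and 6.55% of shared genes, and in 8 of 19 (42.1%) of the 2-cell-stage list. It was in 14.2% of all 27025. The median GC content of the promoters was 46% in the 2-cell-stage list and 61% in shared genes. CCAAT was in 41.9% of genes called higher, 37.7% called lower and 40.6% of shared genes. GGATTA was in 4.15% of genes called higher, 6.29% called lower and 5.84% of shared genes, and in 4 of 19 of the 2-cell-stage list. A motif of the kind bound by the factor Dux was in 0 promoters of either set of calls and in 11 of all 27025. These are counts of letters in a fixed window, and whether a factor binds there was not measured.

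Other embryos of the series were ranked in the same way. With 26 2-cell embryos injected with tRF-GlyGCC, a tRNA fragment, in place of the GFP ones, 146 genes were higher (1.71%) and 229 lower (2.68%) in GFP 4-cell embryos. With 27 4-cell embryos injected with an antisense oligonucleotide to that fragment in place of the GFP ones, 209 were higher (2.44%) and 282 lower (3.3%) than in GFP 2-cell embryos. Neither comparison is independent of the main one, since each shares a group with it. Both groups were then replaced: for the antisense 4-cell against the tRF-GlyGCC 2-cell embryos, 114 genes were higher (1.33%) and 131 lower (1.53%). Of these, 85.1% of the higher and 84.7% of the lower were calls of the GFP embryos, which is 33.7% and 26.6% of the GFP calls. These embryos come from the same tables and share batches with the GFP embryos. Unit, gene filter and table therefore still cannot be told apart from stage. The 2-cell-stage list had a median difference of -47.9 points there but 0 calls, because single embryos overlapped: its median percentile reached 78.1 in the highest antisense 4-cell embryo and was as low as 46.3 in the lowest tRF-GlyGCC 2-cell embryo. The mitochondrial ribosomal list had 21.7 points and 4 higher calls, oxidative phosphorylation 18.2 points and 7, and maternal regulators -29.1 points and 6 lower calls.

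Set against 42 2-cell embryos injected with small RNA of control sperm, from the other table of 2-cell embryos, the GFP 4-cell embryos had 135 genes called higher (1.59%) and 168 called lower (1.98%) of 8482. They share their 4-cell embryos with the main comparison. Slirp had a difference of 71.5 points there, against 80.7 with GFP 2-cell embryos, and Bhmt one of 76.8, against 76.5. Others were smaller: Bag3 had 30.5 points, against 65.7, and Sox15 had 29.7, against 55.6. Of the 69 called genes named, 34 were called there too. The list of 2-cell-stage genes had 5 lower calls, against 16 with GFP 2-cell embryos, and a median difference of -48.8 points, against -54.6.

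Within each stage, the embryos of different batches could be tested. At the 2-cell stage, with 5 embryos of batch H and 6 of batch G, edgeR's quasi-likelihood test with Benjamini-Hochberg adjustment called 1 of 8717 genes (0.0115%). This was Tsr1, a ribosome biogenesis factor, at 9.08 to 44.7 CPM in batch H and 53.7 to 375 CPM in batch G, a log2 fold change of -3.60 (adjusted p = 0.0437). At an unadjusted p under 0.05 there were 794 genes, and DESeq2 called 77. Leaving out a single 2-cell embryo gave 0 to 5 called genes: 5 without replicate 9 of batch G, and 0 without any one of replicates 1, 2, 3, 4, 7, 8, 10 and 11 (568 to 926 at an unadjusted p under 0.05 in these by edgeR). Sp110 (adjusted p = 0.123) and Cnnm4 (adjusted p = 0.187) came next and did not pass.

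At the 4-cell stage, the 28 embryos of 8 batches were tested with limma's F-test on log2(FPKM + 1), and 370 of 7144 features (5.18%) differed between batches. The smallest adjusted p-values belonged to Snrpn, Snurf and Mcts2 (1.13e-06 for each), 3 imprinted genes that are transcribed from the allele inherited from the sperm. Of the genes called between the stages and tested here, 9 of 288 called higher (3.13%) and 5 of 184 called lower (2.72%) differed between batches, against 270 of 5930 shared genes (4.55%). A call required that the stages did not overlap, which favours genes with little spread between embryos. These shares therefore cannot show whether the calls depend on batch. The count depended on single batches and embryos. It was 15 without batch N, 792 without batch P, 62 without replicate 2 and 199 without replicate 8 (both of batch N), and 661 without replicate 20 (batch P). Without batches M and N, 0 of 7145 features differed by limma (552 at an unadjusted p under 0.05).

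Snrpn, which encodes a spliceosomal SmN protein, was at 0 to 1.10 FPKM in the 6 embryos of batches M and N (median 0.352), against 5.45 to 189.6 FPKM in the 22 embryos of the other batches (median 61.4). Snurf, which lies on the same transcript so that the split of reads between them is uncertain, was at 0 to 0.986 FPKM in batches M and N and 3.26 to 22.8 FPKM in the others. Mcts2, a near copy of Mcts1 whose reads may also be shared, was at 0 to 6.92 FPKM in batches M and N and 2.55 to 113.2 FPKM in the others. For Snrpn and Snurf no embryo of batches M and N reached the lowest embryo of the other batches, and for Mcts2 the ranges overlapped.

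Other imprinted and Y-linked genes were then looked up in these batches, picked after the first 3 were seen. The paternally expressed Bbx was at 0 to 0.526 FPKM in batches M and N and 2.70 to 20.3 FPKM in the others (adjusted p = 9.97e-06 by limma). Gab1 was at 0 to 0.643 FPKM, against 2.61 to 28.3 FPKM (adjusted p = 0.000254 by limma). Impact was at 0.969 to 15.3 FPKM, against 4.44 to 60.5 FPKM (adjusted p = 0.000591 by limma), and the ranges overlapped. Of the 13 paternally expressed genes looked up, Snrpn, Snurf and Mcts2 included, 11 had a lower median in batches M and N than in the others, and in 4 of them the ranges did not overlap. Mest was at 0 to 1.57 FPKM, against 1.04 to 17.03 FPKM, and the medians were 0, against 4.02 FPKM, for Sgce, 0.209, against 1.20 FPKM, for Peg3, 0, against 0.702 FPKM, for Slc38a4 and 0, against 0.450 FPKM, for Sfmbt2. Usp29 and Kcnq1ot1 had higher medians in batches M and N: Usp29 was at 2.48 to 7.79 FPKM in batches M and N and 0.886 to 11.3 FPKM in the others, and Kcnq1ot1 was at 2.19 to 13.5 FPKM, against 0.690 to 10.3 FPKM.

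The 4 maternally expressed genes looked up had overlapping levels. Their medians in batches M and N were 28.1 FPKM for Phlda2, against 32.8 in the others, 2.35 for Grb10, against 2.33, and 1.32 for Cdkn1c, against 1.10. Igf2r was at 10.6 to 44.7 FPKM in batches M and N and 6.22 to 40.1 FPKM in the others. The summed level of Y-linked genes was 0 to 2.85 FPKM in the 6 embryos of batches M and N, and 12 of the 22 other embryos were at 5 FPKM or more. Eif2s3y was listed at 0 in all 6 of them. Xist, the RNA of the inactive X, was at 0.139 to 2.02 FPKM in batches M and N and 0.0176 to 44.9 FPKM in the others. In the 5 antisense embryos of batch M, Snrpn was at 0 to 0.646 FPKM. Snurf was at 0 to 0.585 FPKM there, Bbx at 0 to 0.138 and Gab1 at 0 to 0.253. Mest (0 to 3.71 FPKM), Sgce (0 to 3.28) and Xist (0.0839 to 11.1) reached higher than in the GFP embryos of batches M and N. Phlda2, at 109.7 to 199.9 FPKM, lay above all GFP embryos of these batches. The antisense embryos of batch N were not looked up for these genes. Of the fixed list of imprinted genes, 12 were shared, 0 were called between the stages, and 4 of the 7 tested differed between batches. Other differences between these batches and the rest were not tested.

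**Figure D5:**
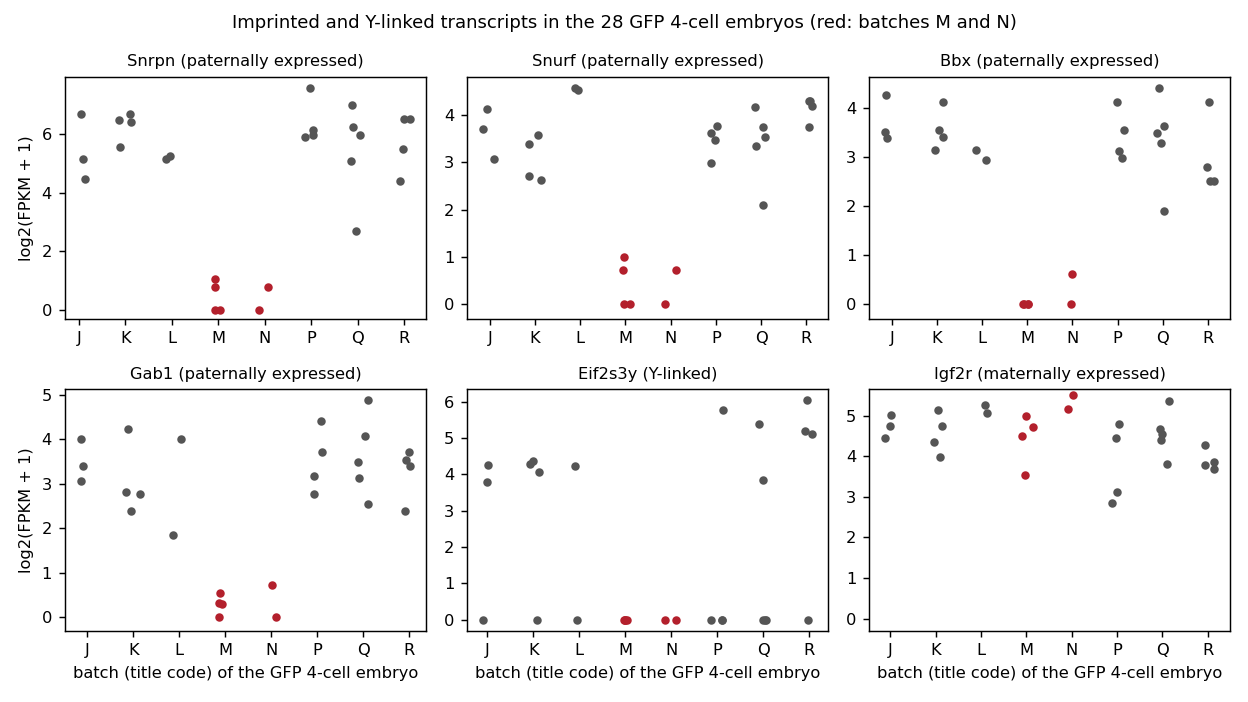
Level of 6 genes as log2(FPKM + 1) (vertical axis) in the 28 GFP 4-cell embryos by their batch (horizontal axis), with a point for each embryo and batches M and N (6 embryos) in red. Snrpn, Snurf, Bbx and Gab1 show no overlap between batches M and N and the other batches, Eif2s3y is at 0 in all 6 embryos, and Igf2r overlaps.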

How the data were processed

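The 2-cell table holds expected counts and the 4-cell table FPKM, both deposited by the authors (units per the file headers and the labels). The submitters' processing notes name Bowtie and the build mm10. For the counting tool, the annotation and every version, nothing is given in the sources used here. The smallest value of each table stands for 0 and was read as 0. Batches are the end codes of the titles. The front codes of the 2-cell titles entered no test. Embryos are separate samples that share batches, and p-values reflect only the spread between embryos.

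Symbols that a spreadsheet had turned into dates (10 in the 2-cell table, 27 in the 4-cell table) were left out. Percentiles used average ranks. Transcript lengths came from the RefSeq transcripts listed in the 2-cell table for 8481 genes and by symbol for 71, and coding lengths from GENCODE release M21. Expected counts were rounded and tested between batches with edgeR 4.0.16 (TMM), and log2(FPKM + 1) with limma 3.58.1 at a mean of at least 5 FPKM, both with Benjamini-Hochberg adjustment at 0.05. R 4.3.3, DESeq2 1.42.0, Python 3.11.15 and pandas 2.3.3 were used. The scripts were tested on simulated data.

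The genes named are the 12 largest calls in each direction, 3 members and 1 opposite member of each list, fixed stage markers and the 3 smallest p-values of each batch test. Others are said to be picked after their values were seen. The members and lists were chosen with earlier results of these data known.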

Additional observations from a re-analysis of the deposited data

How the results depend on the processing

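No paired analysis was possible because the 4-cell and 2-cell embryos share no animal, litter or batch in their labels, and their replicate numbers only name embryos. Of the 150 genes named, the difference as deposited changed sign in 10 under an alternative that also ranked the values as deposited, and 0 of these were called. Division by length and log2 shares were not among the alternatives of this count. For Nanog it was 13.2, and -13.95 for antisense 4-cell against tRF-GlyGCC 2-cell embryos. For Fgf4 it was -7.95, and 8.53 for the same embryos. The difference of Ncl was 11.3 per transcript length and -6.60 as deposited, that of Mrpl41 was -7.01 and 28.9, and among the called genes Rps15a had 47.1 per transcript length and -1.13 per coding length. The sign also differed between transcript length and the values as deposited for Cpeb2 (14.5 and -9.37), Cox6b2 (-21.6 and 2.42) and Zp3 (-18.7 and 1.69). The median of the DNA methylation list was -6.49 per transcript length, and 0.0877 for antisense 4-cell against tRF-GlyGCC 2-cell embryos. As deposited, 761 genes were higher and 791 lower. These counts were 1677 and 1703 with no requirement on overlap, 451 and 1567 with log2 shares (pseudocount 1) in place of ranks, 413 and 1251 with a pseudocount of 10, and 367 and 519 with counts per transcript length alone. They were 448 and 442 with tRF-GlyGCC 2-cell embryos, 438 and 321 with control sperm RNA 2-cell embryos, and 377 and 316 for antisense 4-cell against tRF-GlyGCC 2-cell embryos. The 288 higher and 417 lower calls that held per transcript length were 170 and 267 at 40 points, 1021 and 1070 with no requirement on overlap, 491 and 680 without batch H of the 2-cell embryos, 146 and 229 with tRF-GlyGCC 2-cell embryos, 135 and 168 with control sperm RNA 2-cell embryos, and 114 and 131 for antisense 4-cell against tRF-GlyGCC 2-cell embryos. The lower calls were 999 and 629 with log2 shares and pseudocounts of 1 and 10. Leaving out each embryo in turn gave 754 to 840 higher and 792 to 909 lower as deposited, and 287 to 339 and 415 to 526 held per length. Of the 69 called genes among the 150 named, 56 were kept at 40 points and 29 when both groups were replaced. Between batches, leaving out each embryo gave 0 to 5 genes at the 2-cell stage and 62 to 661 features at the 4-cell stage. The 2-cell count of 1 was 77 by DESeq2, 137 with all 43 embryos of that table and 0 without replicates 8 and 10, and the 4-cell count of 370 was 792 without batch P, 15 without batch N and 0 without batches M and N. The causes of these changes were not tested. The unknown depth of the 4-cell libraries and the low-count filter of the 2-cell table limit what can be read for rare transcripts. Leaving out single embryos, replicates 8 and 10, batches M, N and P, and coding length were added after seeing the data.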

Other observations

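The 4-cell table holds 11661 protein-coding features that are not among the genes of the 2-cell table, so their place at the 2-cell stage was not analysed here. Of these, 689 had a median of 5 FPKM or more over the 28 GFP 4-cell embryos and 65 had 50 or more. They were ordered by their median, and those named were picked after their values were seen. They include replication-dependent histone genes, such as Hist2h3b at 44.03, 464.2 and 862.0 FPKM (lowest, median and highest embryo) and Hist1h2ak at 17.5, 158.0 and 506.0 FPKM. These genes belong to families of near copies whose reads can be shared. Genes linked to epithelia and trophectoderm were present too: Hand1, a basic helix-loop-helix factor of trophoblast, had 16.3, 198.7 and 398.6 FPKM, Sfn, an epithelial 14-3-3 protein, had 19.6, 157.9 and 352.8 FPKM, and the tight junction gene Cldn4 had 0, 90.4 and 371.8 FPKM. Esrp2, an epithelial splicing regulator, had 20.6, 99.5 and 208.0 FPKM.

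Mitochondrial and metabolic genes of this kind were Uqcrb of complex III (38.2, 221.3 and 817.6 FPKM), the mitochondrial elongation factor Tufm (64.1, 145.8 and 193.2 FPKM), Mrpl52 (10.9, 108.1 and 328.8 FPKM) and the galactokinase gene Galk1 (27.1, 139.3 and 346.1 FPKM). Cldn4 was at 1 FPKM or more in 26 of the 28 embryos and the other genes named here in all 28.

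In 2-cell replicate 8, the genes farthest below the other 10 embryos were AU015228 (percentile 3.17, against 96.2 to 99.7), Snupn (7.94, against 91.1 to 98.5) and Ankrd10 (3.17, against 82.6 to 99.3). Rps18 (3.17, against 78.8 to 96.01) and Rpl6 (12.1, against 84.6 to 96.7) of the cytosolic ribosome were also among its 11 lowest.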
